A study of Mus musculus with 6 samples.

Results

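The genes of oxidative phosphorylation described here were the protein-coding genes whose symbols begin with mt-, Nduf, Uqcr, Atp5 or Sdh, or with Cox followed by a digit from 4 to 8. They numbered 111 of the 54532 genes in the count table. Of these, 13 are encoded by the mitochondrial genome and 98 by the nucleus, and the nuclear ones comprise 86 entries for subunits and 12 for assembly factors. RNA selected for its polyA tail was sequenced from the intestinal epithelium of Apoe-/- mice, which lack apolipoprotein E and are used to study atherosclerosis; the genotype was the same in both groups. Mice had been gavaged with Candida albicans, a gut yeast, or with phosphate-buffered saline (PBS), every 3 days for 2 weeks, and each group had 3 libraries. The labels do not say whether a library came from 1 mouse, which stretch of intestine was taken or how old the mice were, and the p-values below reflect only how far libraries of a group differ, which may be technical.

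Oxidative phosphorylation makes ATP in the inner mitochondrial membrane. Complexes I and II pass electrons from NADH and succinate to ubiquinone, complex III passes them on to cytochrome c and complex IV to oxygen, and the proton gradient built by complexes I, III and IV drives the ATP synthase, complex V. The mitochondrial genome encodes core subunits of every one of these complexes except complex II and is transcribed as long RNAs from its heavy and light strands, which are then cut apart. The nucleus encodes the remaining subunits and all assembly factors, so the complexes need transcripts from both genomes. In the small intestine, absorptive enterocytes are rich in mitochondria.

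Totals lay between 21406930 and 24891735 counts per library, and of the members 104 passed the filter on low counts, all 13 mitochondrial and 91 nuclear ones. Levels are given as CPM, the count relative to the library total after TMM scaling (trimmed mean of M values, a correction for differences in RNA composition), with mean ± SD over 3 libraries where a mean is given. All 8 epithelial markers were detected in every library, with a summed level of 11542 to 19753 CPM in PBS and 17621 to 20700 CPM in Candida albicans. Other tissue was present unevenly: 10 smooth muscle markers summed to 7055, 524 and 3493 CPM in the PBS libraries, in replicate order as everywhere below, and to 1792, 234 and 206 CPM in the Candida albicans libraries, and 7 B cell markers to 73.5 to 220 CPM and 1.81 to 222 CPM. In bulk RNA, fewer cells of a type and less RNA per cell cannot be told apart.

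The mitochondrially encoded mRNAs made up a smaller share of the RNA in the Candida albicans libraries. The 13 mitochondrial genes held 6.50%, 5.63% and 8.54% of all counts in PBS and 3.03%, 3.74% and 4.41% with Candida albicans. The highest Candida albicans library was therefore below the lowest PBS library, and the group means were 6.89% ± 1.49 and 3.73% ± 0.69. The difference of -3.17 percentage points lay between -3.80 and -2.34 when single libraries were left out, the smallest of these without PBS replicate 3.

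Set against the nuclear subunits, which needs no scaling between libraries, the mitochondrial mRNAs were again lower. The log2 ratio of mitochondrial to nuclear subunit counts was 2.02, 1.71 and 2.21 in PBS and 1.01, 1.26 and 1.61 in Candida albicans, without overlap. The mean difference was -0.69, a ratio of 1.30 ± 0.30 against 1.98 ± 0.25 on the log2 scale. As a share of all counts the nuclear subunits were also lower, at 1.603%, 1.716% and 1.844% in PBS and 1.499%, 1.561% and 1.443% in Candida albicans. After TMM scaling their sum was 15081, 16077 and 15670 CPM against 17180, 17372 and 15232 CPM, and the groups overlapped, so the direction of the nuclear sum depended on the scaling.

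**Figure D1:**
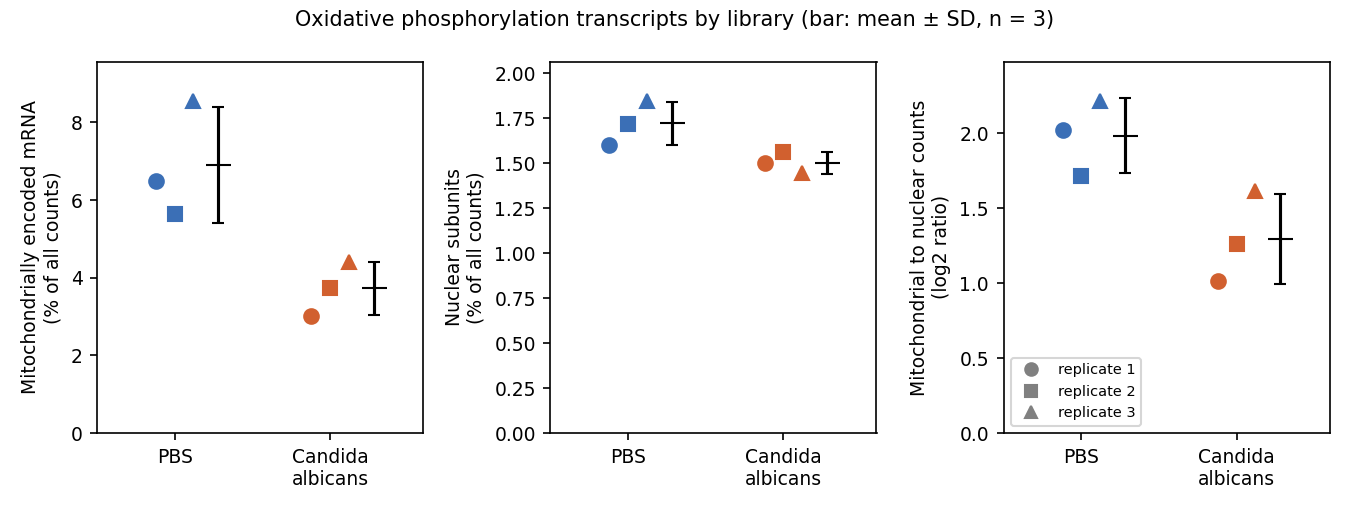
Share of all counts from the 13 mitochondrially encoded genes (left, percent), from the nuclear subunits (middle, percent) and the log2 ratio of the 2 (right), 1 point per library, with the mean ± SD of 3 libraries beside each group. In all 3 panels every Candida albicans point lies below every PBS point, and PBS replicate 3 is the highest, at 8.54% on the left and 2.21 on the right.

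Across the 13 mitochondrial genes the log2 fold change of Candida albicans against PBS was negative for all 13, with a median of -0.85 and a range of -1.80 to -0.11. Without PBS replicate 3, which was the highest library for 11 of the 13 genes, the median was -0.49. Candida albicans replicate 1 was the lowest library for all 13. By edgeR (quasi-likelihood test, p adjusted after Benjamini and Hochberg across the 16313 genes tested), 0 of the 13 had an adjusted p under 0.05, and 0% of all genes did. The smallest adjusted p among them was 0.089, for mt-Nd2. At an unadjusted p under 0.05, 8 of 13 were lower, against 16.2% of all genes, and 0 were higher, against 13.4%. All Candida albicans libraries were under all PBS libraries for 9 of 13, against 18.1% of all genes, and above them for 0, against 17.6%. A negative log2 fold change was common, at 60.5% of all genes, whose median was -0.16. The DESeq2 Wald test called 7 of the 13 lower, where it called 7.09% of all genes lower, and limma-voom called 0 of the 13 and 0% of all genes.

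Complex I, the NADH dehydrogenase, has 7 mitochondrial subunits, which form much of its proton-pumping membrane arm. mt-Nd1 (ENSMUSG00000064341, chromosome MT, 2751 to 3707, mm10) had 7359, 7514 and 9665 CPM in PBS and 4270, 5088 and 5129 CPM in Candida albicans. mt-Nd2 (MT, 3914 to 4951) had 3616, 3292 and 4587 CPM against 1814, 2314 and 2259 CPM. mt-Nd4 (MT, 10167 to 11544) had 4726, 4092 and 6130 CPM against 2706, 3348 and 3434 CPM. For these 3 genes the groups did not overlap, and their log2 fold changes were -0.76 (SE 0.23), -0.85 (SE 0.22) and -0.66 (SE 0.24), with edgeR adjusted p of 0.10, 0.089 and 0.14. mt-Nd3 and mt-Nd4l, whose levels are uncertain for reasons given below, had 10.6 ± 4.58 and 13.8 ± 5.99 CPM in PBS and 5.15 ± 0.44 and 7.32 ± 3.30 CPM in Candida albicans. The libraries of mt-Nd3 did not overlap between groups, and those of mt-Nd4l did.

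The neighbours mt-Nd5 and mt-Nd6 were the mitochondrial genes with the smallest differences. mt-Nd5 (MT, 11742 to 13565) had 3591, 2956 and 3290 CPM in PBS and 1887, 2973 and 3213 CPM in Candida albicans, a log2 fold change of -0.29 (SE 0.26). mt-Nd6 (MT, 13552 to 14070, minus strand) had 1305, 1200 and 1174 CPM against 920, 1233 and 1261 CPM, a log2 fold change of -0.11 (SE 0.19). In both genes only Candida albicans replicate 1 lay below every PBS library, and with replicate 1 of both groups left out the log2 fold changes were 0.11 and 0.19. mt-Nd6 is the only mRNA made from the light-strand RNA. Its end overlaps that of mt-Nd5 on the opposite strand, and as the strand setting of the counting is not given, reads over that overlap may belong to either gene. For the same reason, opposite-strand reads elsewhere in mt-Nd6 may have been counted for it, which also limits its share below.

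mt-Nd6 therefore took a larger share of the mitochondrial mRNA counts with Candida albicans. Its share was 2.13%, 2.27% and 1.62% in PBS and 2.65%, 2.96% and 2.71% in Candida albicans, with no overlap. mt-Nd2 took a smaller one, 5.91%, 6.24% and 6.32% against 5.23%, 5.55% and 4.85%. The share of mt-Co1 was 45.8% ± 1.45 and 47.8% ± 1.48, with overlap. The log2 ratio of mt-Nd6 to mt-Nd5 counts overlapped too, at -1.42 ± 0.10 and -1.22 ± 0.16.

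Complex III has a single mitochondrial subunit, cytochrome b, which holds its haem b groups. mt-Cytb (MT, 14145 to 15288) had 11156, 9407 and 14359 CPM in PBS and 6102, 7211 and 8189 CPM in Candida albicans, a log2 fold change of -0.70 (SE 0.26, edgeR adjusted p 0.14). Every Candida albicans library was below every PBS library.

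Complex IV, cytochrome c oxidase, has its catalytic core in mt-Co1 to mt-Co3. mt-Co1 (MT, 5328 to 6872) had 29040, 23921 and 32447 CPM in PBS and 16784, 19225 and 22770 CPM in Candida albicans, a log2 fold change of -0.54 (SE 0.27, edgeR adjusted p 0.23). mt-Co2 had 146, 162 and 534 CPM against 93.3, 115 and 115 CPM, and mt-Co3 105.4, 89.1 and 184 CPM against 45.6, 56.8 and 78.4 CPM. None of the 3 overlapped, and for mt-Co2 PBS replicate 3 stood more than 3-fold above the other PBS libraries. Complex V has mt-Atp6, a proton channel subunit, with 94.9, 114 and 164 CPM against 43.4, 87.0 and 67.1 CPM, and mt-Atp8, with 1.17, 0.992 and 5.95 CPM against 0.543, 1.14 and 0.636 CPM. mt-Atp6 did not overlap, while mt-Atp8 did and rested on few counts.

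**Figure D2:**
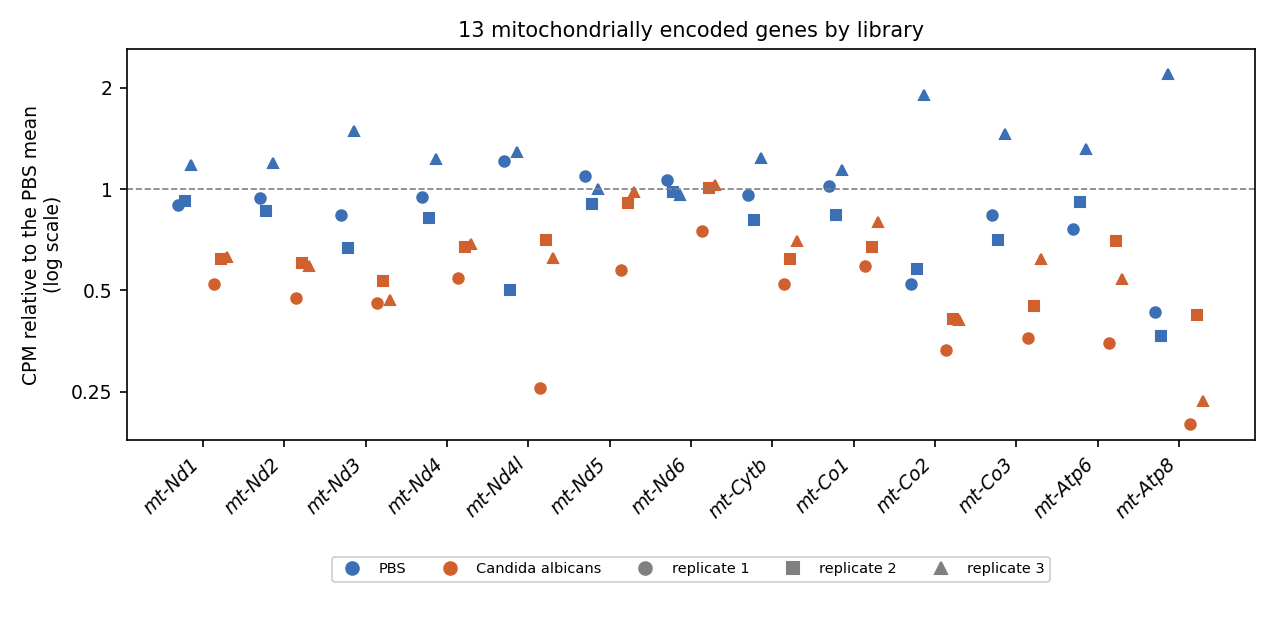
CPM of the 13 mitochondrially encoded genes relative to each gene's PBS mean (log scale), 1 point per library, with the group shown by colour and the replicate by marker. Candida albicans replicate 1 is the lowest point of every gene, and the groups overlap for mt-Nd4l, mt-Nd5, mt-Nd6 and mt-Atp8.

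The 13 genes lay in 2 ranges of level per length. In PBS, mt-Co1, mt-Cytb, mt-Nd1, mt-Nd2, mt-Nd4, mt-Nd6 and mt-Nd5 had 18426, 10175, 8547, 3691, 3616, 2363 and 1798 CPM per kilobase of gene length. The other 6 had at most 410, in the order mt-Co2 (410), mt-Atp6 (183), mt-Co3 (161), mt-Nd4l (46.6), mt-Nd3 (30.4) and mt-Atp8 (13.3 CPM per kilobase). Of these 6, 5 have a nearly identical annotated pseudogene on chromosome 1, a piece of mitochondrial DNA copied into the nuclear genome. Gm28661, Gm10925, Gm28437, Gm28438 and Gm10222 match mt-Co2, mt-Atp6, mt-Co3, mt-Nd3 and mt-Nd4l at 99.7% to 100% identity. Between 98.0% and 100% of all 50-base windows of these genes occur unchanged in the annotated nuclear transcripts aligned to them, these copies included. The 5 copies lie together on the minus strand of chromosome 1, 24611535 to 24615565, with Gm28439, which holds 62.2% of the windows of mt-Nd4. mt-Atp8 has no annotated copy, but the 233 bases between the copies of mt-Atp6 and mt-Co2 (chromosome 1, 24614652 to 24614884), the place it holds in the mitochondrial genome, carry none of these annotated copies; their sequence was not read.

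The pair of mt-Nd3 and its copy is printed because it shows how little separates them, over the first 120 bases of the gene. Below it stand mt-Nd6 and its closest annotated copy, a more diverged one on chromosome 4 in which no 50-base window of the gene occurs unchanged. Sequences are from GENCODE M21 (GRCm38, the assembly of mm10), 5′ to 3′ on the strand of the gene, and capitals mark the bases that differ within a pair, of which there is 1 in the first pair and 4 in the second on each line. The stretches are chrMT:9459-9578 (plus strand), chr1:24613000-24613119 (minus), chrMT:13951-14070 (minus) and chr4:80003795-80003914 (minus), in the order printed.
mt-Nd3: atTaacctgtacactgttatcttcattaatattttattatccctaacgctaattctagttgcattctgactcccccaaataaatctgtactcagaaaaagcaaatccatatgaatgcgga
Gm28438: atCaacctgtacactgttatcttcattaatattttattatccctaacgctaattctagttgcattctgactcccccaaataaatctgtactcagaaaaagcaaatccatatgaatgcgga
mt-Nd6: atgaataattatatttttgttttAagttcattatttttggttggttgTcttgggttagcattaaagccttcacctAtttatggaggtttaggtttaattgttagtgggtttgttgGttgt
Gm11408: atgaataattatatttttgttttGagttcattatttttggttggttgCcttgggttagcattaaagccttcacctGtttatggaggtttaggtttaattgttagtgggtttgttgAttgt

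How reads that match both places were assigned is not given in the sources used here, so the levels of mt-Co2, mt-Co3, mt-Atp6, mt-Nd3 and mt-Nd4l are uncertain. Part of mt-Nd4 and mt-Co1 is open to the same doubt, with 62.2% and 51.1% of their windows in annotated nuclear transcripts. It extends to the shares and sums that hold these genes. The closest copy of mt-Co1, Gm13340 on chromosome 2, had 69 to 277 counts per library. The copies themselves were counted: Gm28438 at 55.9 ± 19.7 CPM in PBS, above the 10.6 ± 4.58 CPM of mt-Nd3. The copies of mt-Co2, mt-Co3, mt-Atp6 and mt-Nd4l also separated the groups, with Candida albicans below PBS, and the copy of mt-Nd3 overlapped. With the counts of each of the 5 genes added to those of its copy, an alternative chosen after the data had been seen, the median log2 fold change of the 13 was -0.76. Summed with its copy, mt-Nd3 overlapped between groups, at 48.4, 57.4 and 93.6 CPM in PBS and 30.5, 52.0 and 36.4 CPM in Candida albicans. The sum for mt-Nd4l overlapped too, and those for mt-Co2, mt-Co3 and mt-Atp6 did not. Taken by level, the 7 genes above 1000 CPM per kilobase had a median log2 fold change of -0.66 and the 6 below it -1.05. The sum of the 7 was 60792, 52381 and 71651 CPM in PBS and 34485, 41391 and 46255 CPM in Candida albicans, without overlap.

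**Figure D3:**
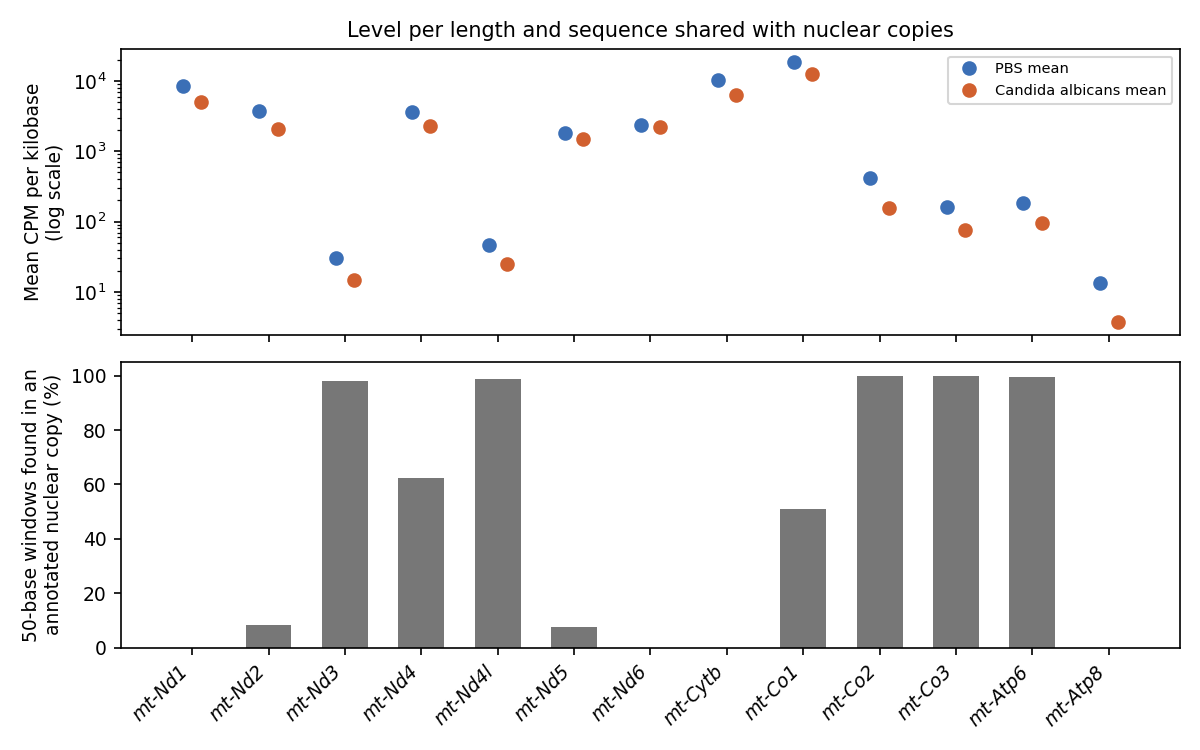
Group mean level of each mitochondrial gene in CPM per kilobase (top, log scale, blue PBS and orange Candida albicans) and percent of its 50-base windows found in an annotated nuclear copy (bottom, bars from 0). The 5 genes with 98.0% or more of their windows in a copy are all at 410 CPM per kilobase or less.

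The nuclear subunits stayed close to 0 as a group. Of 79 tested, 66 had a log2 fold change within 0.25 of 0, 7 were at least 0.25 higher and 6 at least 0.25 lower, and the median was -0.004 under TMM, where the median of all genes was -0.16. The median was 0.08 under DESeq2 size factors and -0.29 under library totals, where the medians of all genes were -0.08 and -0.45. In edgeR's test 0 of the 79 had an adjusted p under 0.05. With unadjusted p under 0.05 there were 5 higher and 2 lower, against 13.4% and 16.2% of all genes, and the groups did not overlap for 13 higher and 3 lower members, against 17.6% and 18.1%. Among the 91 nuclear members the DESeq2 Wald test called 5 higher, against 10.7% of all genes, and edgeR without PBS replicate 1 called 2, against 10.1%. limma-voom called 0. Mitochondrial and nuclear medians differed by -0.84, and by -0.56 without PBS replicate 3.

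**Figure D4:**
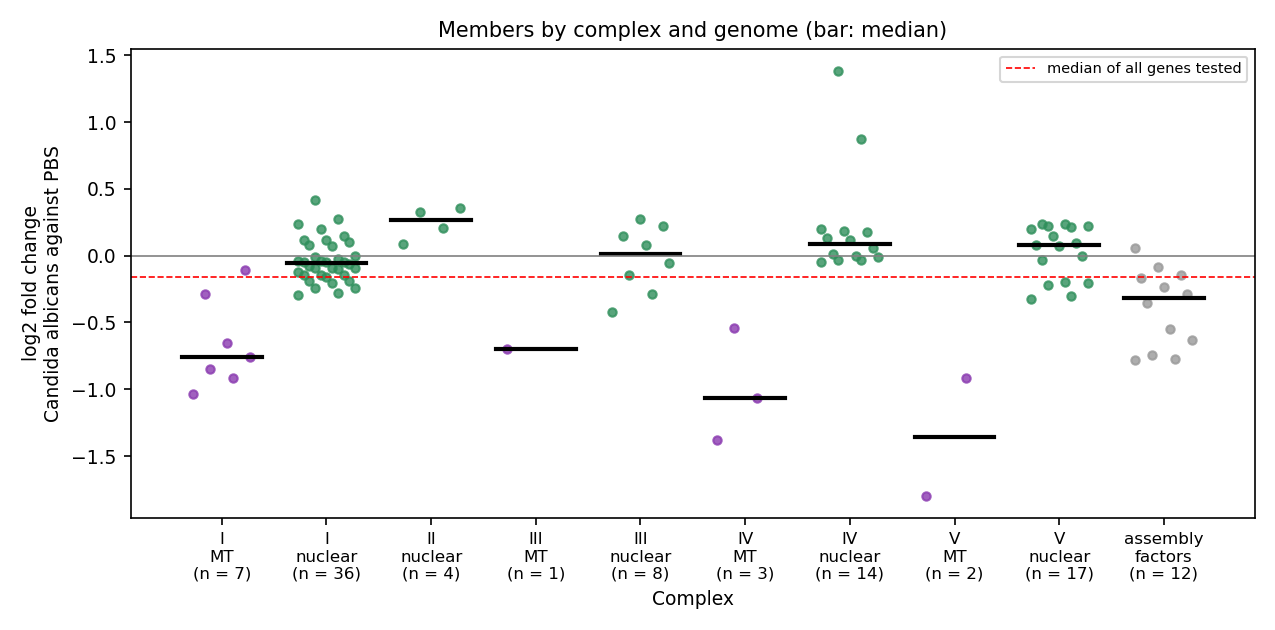
log2 fold change of every tested member, Candida albicans against PBS, by complex and genome (purple, mitochondrial; green, nuclear subunits; grey, assembly factors), with black bars at the medians and a dashed line at the all-gene median of -0.16. The mitochondrial medians lie between -1.36 and -0.70 and the nuclear ones between -0.05 and 0.27. The value of -1.36 is that of complex V and rests on 2 genes, mt-Atp6, with a near-identical nuclear copy, and mt-Atp8, with few counts.

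Complex I had 36 tested nuclear subunits with a median log2 fold change of -0.05 and a range of -0.29 to 0.41. Of the core subunits that carry its flavin and iron-sulphur clusters, Ndufs1 had 106 ± 2.32 CPM in PBS and 111 ± 3.22 CPM in Candida albicans, and Ndufv1, which binds the flavin, 145 ± 10.04 and 143 ± 5.76 CPM. Ndufs8, another iron-sulphur subunit, had 72.4 ± 9.17 and 61.3 ± 3.51 CPM, a log2 fold change of -0.24 (SE 0.13), with overlap. Ndufs7, the iron-sulphur subunit that hands electrons to ubiquinone, had 99.7, 116 and 118.5 CPM against 89.5, 92.6 and 90.3 CPM, a log2 fold change of -0.29 (SE 0.11, edgeR adjusted p 0.15), without overlap. Ndufb4, an accessory subunit of the membrane arm, was on the other side at 37.4, 38.7 and 41.4 CPM against 50.6, 58.6 and 47.4 CPM, a log2 fold change of 0.41 (SE 0.12, edgeR adjusted p 0.097), also without overlap.

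Complex II, succinate dehydrogenase, also belongs to the tricarboxylic acid cycle, has no mitochondrially encoded subunit, and was the complex with the highest nuclear median. Sdha, its flavoprotein (ENSMUSG00000021577, chromosome 13, 74322254 to 74350280), had 394, 399 and 344 CPM in PBS and 501, 499 and 457 CPM in Candida albicans, a log2 fold change of 0.36 (SE 0.14, edgeR adjusted p 0.15). Sdhb, its iron-sulphur subunit (ENSMUSG00000009863, chromosome 4, 140961203 to 140979193), had 171, 170 and 167 CPM against 225, 215 and 197 CPM, a log2 fold change of 0.33 (SE 0.12, edgeR adjusted p 0.13). In both genes every Candida albicans library was above every PBS library. Of the membrane anchors, Sdhd had 267, 271 and 276 CPM against 339, 323 and 279 CPM, without overlap, and Sdhc 203, 221 and 205 CPM against 236, 239 and 194 CPM, with overlap. The median of the 4 was 0.27 under TMM and -0.02 under library totals, where Sdhd turned to -0.08; relative to the median of all genes it was positive under both scalings.

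Complex III had 8 tested nuclear subunits with a median of 0.01. Uqcr10, a small subunit, had 140, 175 and 170 CPM against 128, 127 and 107 CPM, a log2 fold change of -0.42 (SE 0.14, edgeR adjusted p 0.12), without overlap, and was the lowest of all tested nuclear subunits by log2 fold change. The Rieske iron-sulphur protein Uqcrfs1 had 243 ± 14.3 and 269 ± 15.1 CPM and the core protein Uqcrc1 416 ± 47.0 and 440 ± 30.7 CPM, both with overlap. Uqcrb and Uqcrc2 were higher in all Candida albicans libraries, with log2 fold changes of 0.28 and 0.22 that turned to -0.01 and -0.06 under library totals.

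Complex IV had 14 tested nuclear subunits with a median of 0.09 under TMM and -0.20 under library totals, and its 2 largest log2 fold changes belonged to tissue isoforms. Vertebrates carry alternative genes for several subunits of this complex. Cox7a1, the form known from heart and skeletal muscle (ENSMUSG00000074218, chromosome 7, 30184144 to 30186078), had 49.6, 42.8 and 47.2 CPM in PBS and 91.6, 99.1 and 64.6 CPM in Candida albicans. Cox6b2, known from testis (ENSMUSG00000051811, chromosome 7, 4751792 to 4753094), had 13, 4.79 and 6.15 CPM against 26.3, 18.8 and 17.5 CPM. Neither overlapped between groups, and in edgeR's test their log2 fold changes were 0.87 (SE 0.18, adjusted p 0.078) and 1.39 (SE 0.40, adjusted p 0.098). They passed with DESeq2, where 10.7% of all genes were called higher, and by edgeR without PBS replicate 1, where 10.1% were. In that edgeR fit the log2 fold changes were 1.04 and 2.05, with adjusted p of 0.029 and 0.013. The library left out there was the highest PBS library for both genes. limma-voom called neither.

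Their broadly expressed counterparts were level: Cox7a2 had 162 ± 5.70 CPM in PBS and 160 ± 14.9 CPM in Candida albicans, and Cox6b1 290 ± 18.2 and 301 ± 26.4 CPM. The log2 ratio of Cox7a1 to Cox7a2 counts was -1.65, -1.96 and -1.78 in PBS and -0.89, -0.77 and -1.15 in Candida albicans, without overlap. Per gene length, Cox7a1 was 33.7% ± 2.43 of the sum of the pair in PBS and 48.0% ± 3.38 with Candida albicans. Cox6b2 was 1.77% ± 1.07 and 4.22% ± 0.68 of its pair.

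Markers of skeletal muscle and fat were measured beside these isoforms. The 8 striated muscle markers summed to 31.3, 7.52 and 16.0 CPM in PBS and 14.0, 8.36 and 8.91 CPM in Candida albicans, with Tnnc2 at 0 in all libraries. Of the 4 that were tested, Ckm and Pygm overlapped between groups, with negative log2 fold changes, -2.86 (SE 1.84) for Ckm and -1.59 (SE 0.57) for Pygm. Ckm was at 0 counts in Candida albicans replicates 2 and 3. Acta1 and Mylpf were on the side of Cox7a1, at 0.66 (SE 0.31), without overlap, and 0.38 (SE 0.35), with overlap. Of 5 adipocyte markers, Lep was at 0 in all libraries and Adipoq had 117 counts in PBS replicate 1 and at most 1 in any other. Cidec, the adipocyte marker that passed the filter, had 85.9, 41.7 and 13.7 CPM against 123, 103 and 72.9 CPM, a log2 fold change of 1.08 (SE 0.61), with overlap. The mean log2 CPM of all 5 adipocyte markers was 2.035, -1.51 and -1.48 in PBS. In Candida albicans it was -1.32, -1.09 and -1.60, with overlap, so the list did not rise as Cidec did. The part of such cells in the isoform values was not tested. The remaining tissue isoforms were barely counted: Cox4i2, Cox6a2, Ndufa4l2 and Cox8b had 26, 29, 38 and 50 counts over all 6 libraries, and Cox7b2, Cox8c and a second entry under the symbol Atp5o had 0. These 7 entries are the nuclear members that were not tested. Cox8b, the muscle and brown fat form of Cox8, had 28, 1 and 15 counts in PBS and 6, 0 and 0 in Candida albicans. Its order of libraries within each group was that of Ckm, which had 469, 22 and 131 counts against 67, 0 and 0.

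The ubiquitous isoforms were far more abundant. Per length in PBS, Cox8a and Cox6a1 stood at 802 and 788 CPM per kilobase, the highest of all nuclear subunits of complex IV, followed by Cox4i1 at 475. Cox4i1 had 737, 712 and 758 CPM against 850, 854 and 799 CPM, without overlap, a log2 fold change of 0.18 (SE 0.14) that was -0.10 under library totals. Cox5a had 176 ± 27.1 and 199 ± 14.0 CPM, with overlap. Ndufa4, first assigned to complex I and now counted with complex IV, had 139 ± 31.4 and 152 ± 21.6 CPM.

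**Figure D5:**
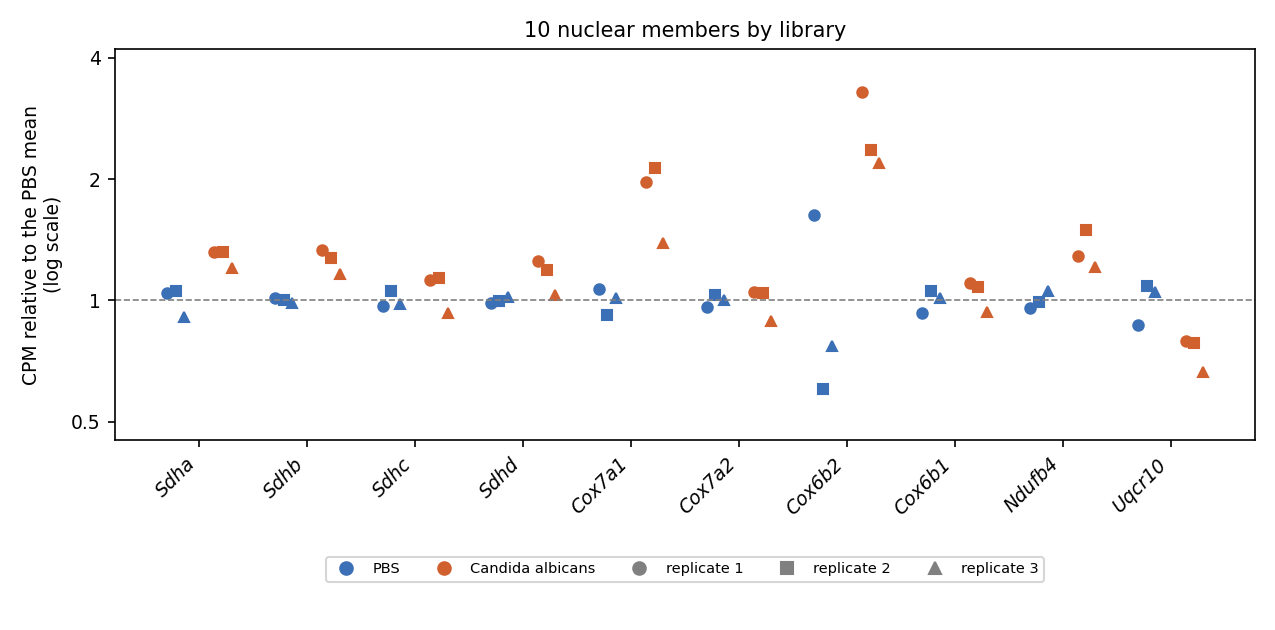
CPM of 10 nuclear members relative to each gene's PBS mean (log scale), 1 point per library, group by colour and replicate by marker. Cox7a1, Cox6b2, Sdha, Sdhb, Sdhd and Ndufb4 have every Candida albicans point above every PBS point, Uqcr10 every one below, and Cox7a2, Cox6b1 and Sdhc overlap. The 10 were picked for display and do not represent the nuclear subunits. Of all 79 tested, 13 were higher and 3 lower without overlap, against 17.6% and 18.1% of all genes.

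Complex V had 17 tested nuclear subunits with a median log2 fold change of 0.08 and a range of -0.32 to 0.24. Of the catalytic F1 head subunits, Atp5b had 1539, 1693 and 1436 CPM in PBS and 1826, 1892 and 1632 CPM in Candida albicans, with overlap, and Atp5a1 1118, 1166 and 1101 CPM against 1321, 1390 and 1230 CPM, without overlap. Their log2 fold changes of 0.20 (SE 0.17) and 0.22 (SE 0.16) turned to -0.09 and -0.07 under library totals. The 3 genes for the c ring, which differ in their import sequence and encode the same mature protein, did not move together: Atp5g1 had a log2 fold change of -0.32 (SE 0.19), Atp5g2 -0.20 (SE 0.14) and Atp5g3 0.23 (SE 0.15), which was -0.05 under library totals. All 3 overlapped between groups, Atp5g3 at 482, 554 and 505 CPM against 645, 618 and 549 CPM.

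The promoters of nuclear respiratory genes are known for sites of the factors NRF1, GABP, ERR and YY1, and their letters were searched in the members' windows. RefSeq windows from 250 bases before to 50 after the start (GRCm38.p6) matched 79 of the 98 nuclear entries, with 83 windows. On either strand, the NRF1 motif GCATGCGC stood in 14.5% of them against 2.71% of the 32851 windows of all genes. The ETS motif CCGGAAG, bound by the factor encoded by Gabpa, stood in 25.3% against 8.86%, the ERR motif AAGGTCA in 9.64% against 4.72% and the YY1 motif AAGATGGC in 10 of the 83 windows against 2.75%. YY1 letters were in 20.6% of the complex I windows, in 12.5% of the complex V windows and in 0 of the 3, 5 and 14 windows of complexes II, III and IV. The other motifs ordered the complexes differently. From complex I to V, NRF1 letters were in 8.82%, 33.3%, 40%, 7.14% and 18.8% of the windows. ETS letters were in 11.8%, 66.7%, 40%, 21.4% and 31.2%, and ERR letters in 8.82%, 33.3%, 0%, 0% and 25%. The windows of all genes were not matched to the members in base composition. Sdhb and Sdha, the complex II subunits, and Cox7a1 with its broadly expressed counterpart Cox7a2 are printed. Capitals mark 1 NRF1 and 1 ETS motif in Sdhb, which do not overlap, and the other windows have none of the 4 motifs. The windows are chr4:140961021-140961320 (Sdhb, plus strand), chr13:74350191-74350490 (Sdha, minus), chr7:30183921-30184220 (Cox7a1, plus) and chr9:79759804-79760103 (Cox7a2, minus).
Sdhb: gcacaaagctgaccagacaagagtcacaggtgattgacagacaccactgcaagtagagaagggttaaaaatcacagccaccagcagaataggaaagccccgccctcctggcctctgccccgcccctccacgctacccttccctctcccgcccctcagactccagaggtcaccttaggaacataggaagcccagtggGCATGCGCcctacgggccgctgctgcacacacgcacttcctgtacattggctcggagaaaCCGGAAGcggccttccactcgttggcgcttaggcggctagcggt
Sdha: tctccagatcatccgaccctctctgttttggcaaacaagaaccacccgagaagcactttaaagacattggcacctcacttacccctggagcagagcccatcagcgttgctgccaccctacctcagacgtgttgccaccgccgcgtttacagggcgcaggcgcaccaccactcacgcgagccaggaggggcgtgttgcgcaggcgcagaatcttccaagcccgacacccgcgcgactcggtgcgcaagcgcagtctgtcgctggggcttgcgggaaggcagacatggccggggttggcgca
Cox7a1: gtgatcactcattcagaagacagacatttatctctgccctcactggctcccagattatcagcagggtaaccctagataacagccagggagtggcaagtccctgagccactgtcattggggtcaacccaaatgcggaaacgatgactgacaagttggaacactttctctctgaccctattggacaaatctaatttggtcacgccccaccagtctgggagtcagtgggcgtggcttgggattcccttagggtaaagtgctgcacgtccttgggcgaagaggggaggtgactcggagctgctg
Cox7a2: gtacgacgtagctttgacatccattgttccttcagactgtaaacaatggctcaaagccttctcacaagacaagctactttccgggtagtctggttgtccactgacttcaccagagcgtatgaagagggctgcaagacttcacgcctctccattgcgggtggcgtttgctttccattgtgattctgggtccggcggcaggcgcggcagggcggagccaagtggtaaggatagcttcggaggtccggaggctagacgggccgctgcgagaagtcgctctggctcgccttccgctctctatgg

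The assembly factors among the members leaned to the lower side. Of 12 tested, 11 had a negative log2 fold change, against 60.5% of all genes. Their median was -0.32, where that of all genes was -0.16. Of these 12, 4 had an unadjusted p under 0.05 and were lower, against 16.2% of all genes, and 6 had all Candida albicans libraries under all PBS libraries, against 18.1%. The smallest edgeR adjusted p among them was 0.12. Ndufaf5, which modifies the complex I subunit Ndufs7, had 6.92, 10.04 and 7.46 CPM in PBS and 4.25, 5.80 and 4.24 CPM in Candida albicans, a log2 fold change of -0.77 (SE 0.25). Ndufaf4 had 18.9, 25.9 and 22.2 CPM against 14.4, 18.5 and 12.9 CPM, a log2 fold change of -0.55 (SE 0.20). The complex II factors Sdhaf1 and Sdhaf3, needed for the iron-sulphur subunit Sdhb, had -0.74 (SE 0.29) and -0.78 (SE 0.31), from PBS means of 4.90 and 2.94 CPM. Each of these 4 was without overlap, and Sdhaf2, which adds the flavin to Sdha, had 30.7 ± 3.398 and 32.0 ± 1.78 CPM.

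Genes that make, translate and import mitochondrial products were read beside the members. In the list for mitochondrial transcription and RNA, 10 of 30 had an unadjusted p under 0.05, 1 higher and 9 lower, against 13.4% and 16.2% of all genes, with a median log2 fold change of -0.37. Rexo2, a mitochondrial RNA exonuclease, had 32.8, 20.6 and 22.1 CPM against 12.7, 8.32 and 10.3 CPM, a log2 fold change of -1.27 (SE 0.25, edgeR adjusted p 0.078). Twnk, the mitochondrial DNA helicase, had -0.89 (SE 0.24), and Polg2, the accessory subunit of the mitochondrial DNA polymerase, 0.53 (SE 0.20). Tfam, which packages the mitochondrial genome and starts its transcription, had 31.5 ± 5.15 and 27.96 ± 2.82 CPM, with overlap.

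Of the proteins of the mitochondrial ribosome, which translates the 13 mRNAs, 68 of 77 tested had a negative log2 fold change, against 60.5% of all genes, and the median was -0.39. By unadjusted p under 0.05, 25 were lower and 1 higher, against 16.2% and 13.4%. Mrps28 had -0.93 (SE 0.25) and Mrps5 -0.75 (SE 0.19), and Mrps36, also described as a subunit of the oxoglutarate dehydrogenase complex, 0.37 (SE 0.14). Of 11 other genes on the mitochondrial chromosome that were tested, 9 were negative, and the ribosomal RNA mt-Rnr1 had 966, 1089 and 1387 CPM against 691, 779 and 859 CPM, without overlap. Ribosomal RNA is only partly retained by polyA selection. In the list for import and channels, 6 of 16 were lower and 0 higher by the same limit and against the same shares of all genes, with a median of -0.40. Timm44, a motor subunit of the inner membrane and the member of lowest p, had -0.66 (SE 0.16). In the mitochondrial stress list, 5 of 11 were lower and 1 higher, against the same shares, with Shmt2, a serine to glycine enzyme, at -0.93 (SE 0.20) and Trib3 at 1.10 (SE 0.44).

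Lists upstream and downstream of the chain are read against the same 13.4% higher and 16.2% lower of all genes. Among 9 biogenesis regulators 2 were higher and 1 lower by that limit. The coactivator Ppargc1a had 42.3, 41.2 and 36.2 CPM against 71.3, 62.6 and 47.8 CPM, a log2 fold change of 0.60 (SE 0.17, edgeR adjusted p 0.093), and its relative Pprc1 15.04, 30.6 and 36.0 CPM against 11.1, 13.7 and 11.6 CPM, a log2 fold change of -1.17 (SE 0.32, adjusted p 0.093); neither overlapped. Of 17 genes of the tricarboxylic acid cycle and pyruvate dehydrogenase, 4 were higher and 1 lower, with Mdh2 at 0.77 (SE 0.26), Sucla2 at 0.66 (SE 0.17) and Idh2 at -0.44 (SE 0.17). Of 7 electron carriers and subunits with other symbols, 2 were higher and 0 lower, and Etfdh, which feeds electrons from fatty acid oxidation to ubiquinone and had the lowest p, was at 0.52 (SE 0.12). Of 33 assembly factors with other symbols, 3 were higher and 4 lower, with the complex I factor Foxred1 at -0.75 (SE 0.19) and the complex III factor Uqcc2 at -0.70 (SE 0.19). Among these 33, 17 had a negative log2 fold change and 16 a positive one, where 60.5% of all genes were negative.

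The summed markers of mature enterocytes and of proliferating cells also differed between the groups, in opposite directions. All 8 markers of mature enterocytes had positive log2 fold changes, 7 without overlap, against 17.6% of all genes. Their sum was 29526, 16570 and 8022 CPM in PBS and 64594, 58454 and 44353 CPM in Candida albicans. All 6 markers of proliferating cells had negative log2 fold changes, 2 without overlap, against 18.1% of all genes. Their sums were 199, 392 and 322 CPM against 147, 199 and 168 CPM. In Candida albicans, library order by enterocyte sum, from high to low, was their order by mitochondrial to nuclear ratio from low to high. In PBS the orders matched except that replicates 1 and 2 changed places. Both measures separated the groups, so the order across groups adds nothing to this. The sums of the proliferating markers did not follow the ratio within either group. The part of these cell types in the mitochondrial result was not tested. All 10 smooth muscle markers had negative log2 fold changes, against 60.5% of all genes. Their median was -2.69, and all 10 overlapped between groups. The part of smooth muscle in the mitochondrial result was not tested. With a smooth muscle score in the fit the median of the 13 mitochondrial genes was -0.90. With replicate 1 of both groups left out it was -0.63.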

How the data were processed

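Polyadenylated RNA of 3 PBS and 3 Candida albicans libraries was compared; samples were grouped by the treatment in the labels. Values are the authors' raw counts of reads per gene, as deposited, without any scaling. The submitters' processing notes list featureCounts 2.0.1, HISAT2 2.2.1 and Trim Galore 0.6.7, with mm10 as the build. Strand and multi-mapping settings were not given in the sources used here. Totals were 21406930 to 24891735 counts, and 3 counts, the limit that a count of 0 allows, corresponded to 0.113 to 0.148 CPM, for counting error only. Every pair of libraries differed by more than counting noise, with a chi-square of 32.8 or more per degree of freedom.

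The analysis used edgeR 4.0.16 under R 4.3.3. filterByExpr, with a minimum count of 10 and a minimum total of 15, retained 16313 of the 29031 genes that had any count. Libraries were scaled by TMM and tested with the quasi-likelihood test (glmQLFit, robust=TRUE), two-sided, without covariates, adjusting p after Benjamini and Hochberg across the 16313 genes and calling below 0.05. Standard errors come from the F statistic. The script for this test was checked on simulated data. No test was run on sums, shares, medians or lists. Alternatives used DESeq2 1.42.0, limma 3.58.1, other scalings and filters, a replicate block, a smooth muscle covariate and left-out libraries. Mitochondrial genes were aligned to nuclear transcripts of GENCODE M21 with BLASTN 2.17.0.

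The members and lists were chosen with earlier results of these data known. Genes named are all 13 mitochondrial genes, the 3 nuclear subunits of lowest p per complex and direction, 11 fixed subunits, the tissue isoforms, and the assembly factors and list genes of lowest p, 2 per direction; not every gene that this rule takes is described, and the values of 1 fixed subunit are not reported here. Cox8b with Ckm and Adipoq, Cidec, Acta1 and Mylpf, and Tfam, Sdhc, Sdhaf1 and Sdhaf3, were named after their values were seen.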

Additional observations from a re-analysis of the deposited data

How the results depend on the processing

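Single genes were followed through the alternatives for the 13 mitochondrial genes and others taken by the naming rule, without the cell type markers. Apart from the 13, a gene was included only if its log2 fold change was at least its SE in size. Named genes nearer to 0 are therefore outside the count of sign changes. Over the resulting 74 genes and all alternatives, 23 single-gene log2 fold changes changed sign. Under library totals, where the median of all genes was -0.45, these were Ndufb3 (-0.014), Ndufa6 (-0.085), Sdhd (-0.079), Uqcrb (-0.010), Uqcrc2 (-0.058), Uqcrfs1 (-0.13), Cox4i1 (-0.10), Cox5a (-0.10), Cox6a1 (-0.081), Atp5o (-0.048), Atp5c1 (-0.059), Atp5g3 (-0.053), Atp5a1 (-0.065), Atp5b (-0.086), Mterf2 (-0.063), Tomm20 (-0.13), Mrpl23 (-0.099), mt-Tn (-0.020) and mt-Tc (-0.047). With replicate 1 of both groups left out, mt-Nd5 was at 0.11 and mt-Nd6 at 0.19. With single libraries left out mt-Nd6 ranged from -0.18 to 0.063, above 0 without replicate 1 of either group. Under library totals the medians were -1.14 for the mitochondrial genes, -0.29 for all nuclear subunits and -0.34, -0.019, -0.27, -0.20 and -0.21 for those of complexes I to V. Complex IV had 0.17 under DESeq2 size factors, the DESeq2 Wald test and the smooth muscle covariate, and complex V 0.19 under that covariate. With single libraries left out the ranges were -0.90 to -0.49 for the mitochondrial median, -0.028 to 0.11 for the nuclear subunits, 0.22 to 0.39 for complex II, -0.030 to 0.15 for complex III, 0.013 to 0.19 for complex IV and 0.042 to 0.18 for complex V, and 0 to 2 nuclear members were called higher. The mitochondrial minus nuclear median lay between -0.96 and -0.56 over all alternatives. The DESeq2 Wald test called 7 mitochondrial genes lower and 5 nuclear members higher (7.09% and 10.7% of all genes), and 1 nuclear member was called higher with no count filter (1.02%) and 2 with replicate 1 of both groups left out (7.02%). Whether libraries of the same replicate number belong together is not given in the labels used here. Their deviations from the group means correlated at 0.58, 0.36 and 0.05 for replicates 1 to 3. With the replicate block 2 mitochondrial genes were called lower, mt-Co3 and mt-Atp6, against 6.44% of all genes. In the same fit 2 nuclear members were called higher, Cox7a1 and Cox6b2, against 6.31%. Without the block 0% of all genes were called, so the number of calls depended on it. The cause of these differences was not tested. Depth limits the low genes, such as mt-Atp8 and the untested isoforms.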
